A study of Mus musculus with 2 samples.

Results

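Genes of the primary cilium and of Bardet-Biedl syndrome were examined for regions called with an Otp antibody in the paraventricular nucleus of the hypothalamus (PVN). The set holds 44 named genes of 21887 protein-coding genes on the nuclear chromosomes, chosen by name for a known role in the cilium. Earlier results of these data were known when it was chosen. CUT&RUN, in which an antibody tethers a nuclease that releases the DNA near its target, was applied to nuclei from the PVN of adult wild-type mice. The antibody was directed against Otp, a homeodomain transcription factor that PVN neurons need for their development, in 1 library, and was IgG, a control antibody with no target, in the other. The labels give the cell type as neurons, but the protocol names no sorting step, and the sources used here give neither the number of animals nor their age in weeks. With 1 library per antibody there are no replicates, and counts of genes below are descriptions of these peak lists with no test.

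The primary cilium is a single antenna of microtubules and membrane that projects from most neurons and holds a select set of receptors. Proteins enter and leave it by intraflagellar transport (IFT), in which kinesin motors and the IFT-B complex carry cargo to the tip and IFT-A takes part in the return. The BBSome, a coat made of Bardet-Biedl proteins, removes membrane proteins from the cilium, and the transition zone at its base acts as a gate. Loss of the BBSome causes Bardet-Biedl syndrome, in which obesity is a leading sign, and the melanocortin receptor Mc4r, whose promoter the series asks about, is known to localise to the primary cilia of PVN neurons.

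An Otp region was counted at a gene when its summit lay within 1 kb of either end of the gene. Of the 44 cilium genes, 26 had such a region (59.1%, 95% exact Clopper-Pearson interval 43.2 to 73.7%), beside 27.2% of all protein-coding genes. The interval takes the genes as independent draws, which genes picked by name are not, and it is no test. Among genes of like length the share was 32.3%, which corresponds to 14.2 of 44 genes. No cilium gene had an IgG region at an end, beside 0.379% of all protein-coding genes. The closest IgG region to any of the 44 lay 92912 bp from an end of Bbs1. The 26 genes had 30 regions, since Bbs7, Mkks, Arl6 and Ift80 had 2 each, and none of the 30 overlapped an IgG region. Such overlaps were rare at all genes. Leaving out Otp regions that overlap an IgG region lowered the protein-coding genes with a region from 5961 to 5891.

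Otp summits at these genes lay mostly just upstream of the transcription start, so the promoters show what was under them. Below are the 250 bases before the RefSeq start (build GRCm38.p6, the assembly that mm10 denotes) of the 6 genes with the highest −log10 q whose summit fell in the promoter window and whose promoter is listed. Each is written 5′ to 3′ on the strand of the gene. Capitals mark TAAT, the core that homeodomains read, and GTTGCC, an arm of the X-box that RFX factors of ciliated cells bind, either in this form or as the reverse complement (ATTA and GGCAAC).
Ift27: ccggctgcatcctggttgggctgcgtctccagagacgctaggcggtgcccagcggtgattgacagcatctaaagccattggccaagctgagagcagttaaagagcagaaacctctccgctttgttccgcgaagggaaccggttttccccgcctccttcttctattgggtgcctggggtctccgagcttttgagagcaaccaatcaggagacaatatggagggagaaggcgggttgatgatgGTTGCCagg
Mkks: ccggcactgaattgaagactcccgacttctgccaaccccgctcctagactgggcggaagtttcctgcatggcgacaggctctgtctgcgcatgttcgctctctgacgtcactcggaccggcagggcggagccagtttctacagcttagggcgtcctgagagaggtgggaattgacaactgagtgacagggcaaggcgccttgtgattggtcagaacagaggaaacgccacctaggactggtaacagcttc
Arl13b: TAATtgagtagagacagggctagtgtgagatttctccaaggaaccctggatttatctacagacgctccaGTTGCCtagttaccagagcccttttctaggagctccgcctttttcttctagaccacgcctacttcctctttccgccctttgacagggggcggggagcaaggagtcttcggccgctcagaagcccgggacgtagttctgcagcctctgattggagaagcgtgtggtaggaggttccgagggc
Tctn2: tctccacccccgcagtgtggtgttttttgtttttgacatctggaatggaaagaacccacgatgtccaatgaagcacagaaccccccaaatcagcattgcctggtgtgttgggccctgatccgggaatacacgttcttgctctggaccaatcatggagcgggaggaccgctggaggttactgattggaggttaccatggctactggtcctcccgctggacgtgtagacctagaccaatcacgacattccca
Ift57: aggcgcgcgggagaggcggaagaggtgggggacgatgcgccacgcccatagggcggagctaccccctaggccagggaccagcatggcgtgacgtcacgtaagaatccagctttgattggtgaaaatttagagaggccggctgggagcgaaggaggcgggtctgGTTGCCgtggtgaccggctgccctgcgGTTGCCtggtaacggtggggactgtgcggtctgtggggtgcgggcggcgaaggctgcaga
Ift140: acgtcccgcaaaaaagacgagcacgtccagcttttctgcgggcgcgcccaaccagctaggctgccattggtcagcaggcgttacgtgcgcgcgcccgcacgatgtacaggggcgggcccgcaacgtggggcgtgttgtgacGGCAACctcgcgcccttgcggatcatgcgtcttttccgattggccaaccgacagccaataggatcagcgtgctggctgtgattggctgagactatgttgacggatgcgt
These stretches lie at chr15:78174082-78174331 (Ift27, reverse strand), chr2:136891407-136891656 (Mkks, reverse strand), chr16:62847041-62847290 (Arl13b, reverse strand), chr5:124598499-124598748 (Tctn2, forward strand), chr16:49699044-49699293 (Ift57, forward strand), chr17:25015836-25016085 (Ift140, forward strand). Their Otp summits lay 136, 68, 74, 53, 93, 81 bp before the start, in the same order.

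In these 6 stretches TAAT or its complement occurred once, at the far end of the Arl13b stretch. TAATTA, the core of sites of paired-class homeodomains, occurred in none. The search was then run on both strands of the promoter windows, from 250 bases before to 50 after a start, of all protein-coding genes. It covered 44 windows of 40 of the cilium genes and 21263 windows in all. TAATTA was in none of the 44 windows, against 4.53% of all windows and 2.57% of the windows of genes with an Otp region. TAAT, which TAATTA contains, was in 17 (38.6%, against 51.8% and 42.7%). These windows belonged to 8 of the 24 cilium genes with an Otp region and a listed start, and to 8 of the 16 without a region. An inverted pair of TAAT cores with a gap of 3 bases was in none (0.362% and 0.182%). For TAATTA and for this pair, the other shares are so low that none in 44 windows does not set these promoters apart. GTTGCC was in 15 windows (34.1%), against 12.6% of all windows and 13.2% of those of genes with an Otp region. These 15 windows belonged to 10 of the 24 cilium genes with an Otp region and to 5 of the 16 without. Among windows of other primary cilium genes, GTTGCC was in 19 of 49 (38.8%). A match of letters is a description of the window and does not show that a factor was there.

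The full X-box, searched as GTTNCC followed after 2 bases by its reverse complement, was found in 3 cilium promoters (6.82% of windows, against 0.428% of all and 0.747% of those of genes with an Otp region). Among windows of other primary cilium genes it was in 3 of 49 (6.12%). The 3 sites in the set described here are shown, in capitals with flanking bases, because genes with and without an Otp region carry them. They were picked out after the matches were seen.
Bbs7 (chr3:36613489-36613518, reverse strand): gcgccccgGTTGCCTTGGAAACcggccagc
Mks1 (chr11:87853183-87853212, forward strand): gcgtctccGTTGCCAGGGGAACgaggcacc
Tctn1 (chr5:122264411-122264432, reverse strand): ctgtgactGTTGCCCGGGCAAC
The Bbs7 site begins 121 bases before the start and the Mks1 site 24 bases before it, while the Tctn1 site begins 36 bases after it. Bbs7 and Tctn1 had an Otp region at the start, whereas the region nearest to Mks1 lay 116 kb away.

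Of the 7 BBSome genes in the set, 5 had a region. This count and those of the other roles below stand beside 27.2% of all protein-coding genes. Among genes of like length to the whole set the share was 32.3%, and differences between roles were not tested. Pileups below are tags (reads or fragments, as the authors' caller counted them) at the summit, worked out from the deposited values, with 95% Poisson intervals. Bbs9 had 24 tags (15.4 to 35.7) over a local background of 1.69 tags, a fold enrichment of 9.29. Bbs2 had 23 tags (14.6 to 34.5) and a fold of 9.31. Bbs4 had 12 tags (6.2 to 21.0) and Ttc8, a further BBSome subunit, had 9 tags (4.12 to 17.1), so that the 4 counts have intervals that meet. Bbs7 had a region of 25 tags (16.2 to 36.9) 920 bp beyond its far end, nearer to the cyclin gene Ccna2 (816 bp), and a weaker one of 16 tags (9.15 to 26.0) 20 bp after its start. Bbs1 and Bbs5, the other BBSome genes of the set, had none, and their nearest Otp regions lay 8.26 and 46.0 kb away.

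BBSome assembly and recruitment need further proteins. Mkks and Bbs10 belong to a family of chaperonin-like proteins that assemble the complex. Mkks had the strongest region of this group, with 35 tags (24.4 to 48.7) and a fold of 10.6, its summit 68 bp before the start, and a second of 25 tags 726 bp before it. Bbs10 had 18 tags (10.7 to 28.4), 36 bp before its start. Arl6, the small GTPase that brings the BBSome to membranes, had 13 tags (6.92 to 22.2) 15 bp before a start and 9 tags 128 bp after one. Bbs12, the third chaperonin-like gene, had none, its nearest Otp region being 98.4 kb away.

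Of the IFT-B genes, 7 of 11 had a region, and they spanned the weakest and the strongest pileups of the set. Ift27, a Rab-like GTPase through which the BBSome exports cargo, had 46 tags (33.7 to 61.4), the highest pileup among the cilium genes, with a fold of 13.0 and a −log10 q of 35.9. Ift80 had 38 tags (26.9 to 52.2) and a fold of 16.0, and a second region of 13 tags. Ift57 had 24 tags (15.4 to 35.7), Ift172 had 17 (9.9 to 27.2) and Ift20, which also works at the Golgi, had 16 (9.15 to 26.0). The lowest were Ift88 with 10 tags (4.8 to 18.4) and Ift74 with 9 (4.12 to 17.1). The intervals of Ift27 and Ift80 meet each other. That of Ift27 lies above those of Ift172, Ift20, Ift88 and Ift74, and that of Ift80 above the last 3 of these. Ift22, Ift46, Ift52 and Ift81, the tubulin-binding partner of Ift74, had none.

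In IFT-A, 2 of 3 genes had a region. Ift122 had 43 tags (31.1 to 57.9), with the highest fold enrichment (16.2) and −log10 q (39.8) of the 30 regions, ranking 350 of 11379 Otp regions by −log10 q. Its summit lay 37 bp inside Ift122 but 16 bp from an end of Mbd4, a DNA repair glycosylase. Ift140 had 24 tags (15.4 to 35.7) and a fold of 11.1, 81 bp before its start. Ift43, a small subunit, had none, and its nearest Otp region was 79.3 kb away.

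All 4 kinesin genes lacked a region at an end. They were Kif3a and Kif3b, the motor subunits of the kinesin that drives transport to the tip, Kif17, a related motor, and Kif7, which acts in Hedgehog signalling at the tip. The nearest Otp regions lay 2.63 kb from Kif17, 5.46 kb from Kif7, 12.2 kb from Kif3b and 95.2 kb from Kif3a. In the length class of Kif7, 32.9% of all protein-coding genes had a region, and in that of Kif3a, Kif3b and Kif17, 33.8%. With only 4 genes, the absence is given as a count.

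At the base of the cilium, 6 of 9 genes of the transition zone or basal body had a region. The tectonic genes Tctn1, Tctn2 and Tctn3, whose products sit in the gate, had 22 tags (13.8 to 33.3), 25 (16.2 to 36.9) and 20 (12.2 to 30.9), with folds of 9.83, 12.4 and 11.6, and so could not be told apart in height. Rpgrip1l, a scaffold of the gate, had 21 tags (13.0 to 32.1), and Alms1, the basal body gene of Alström syndrome, had 14 (7.65 to 23.5). Cep290, which links membrane and microtubules there, had a fold of 9.15 and a −log10 q of 12.9, and no whole pileup matched its deposited values. Mks1, Tmem67 and Tmem216 had none.

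Of the genes for membrane traffic and signalling, 3 of 6 had a region. Arl13b, the GTPase of the ciliary membrane, had 26 tags (17.0 to 38.1) and a fold of 12.7. Arl3, which releases lipid-tailed cargo in the cilium and is activated by Arl13b, had 18 tags (10.7 to 28.4). Tulp3, an adaptor that carries receptors into the cilium, had 17 (9.9 to 27.2). Its relative Tub, the gene of the obese tubby mouse, had none, with the nearest region 76.6 kb away. Gpr161, a receptor that Tulp3 carries and that restrains Hedgehog signalling, and Inpp5e, a lipid phosphatase that Arl13b brings into the cilium, had none either, with the nearest regions 17.9 and 15.6 kb away.

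**Figure D1:**
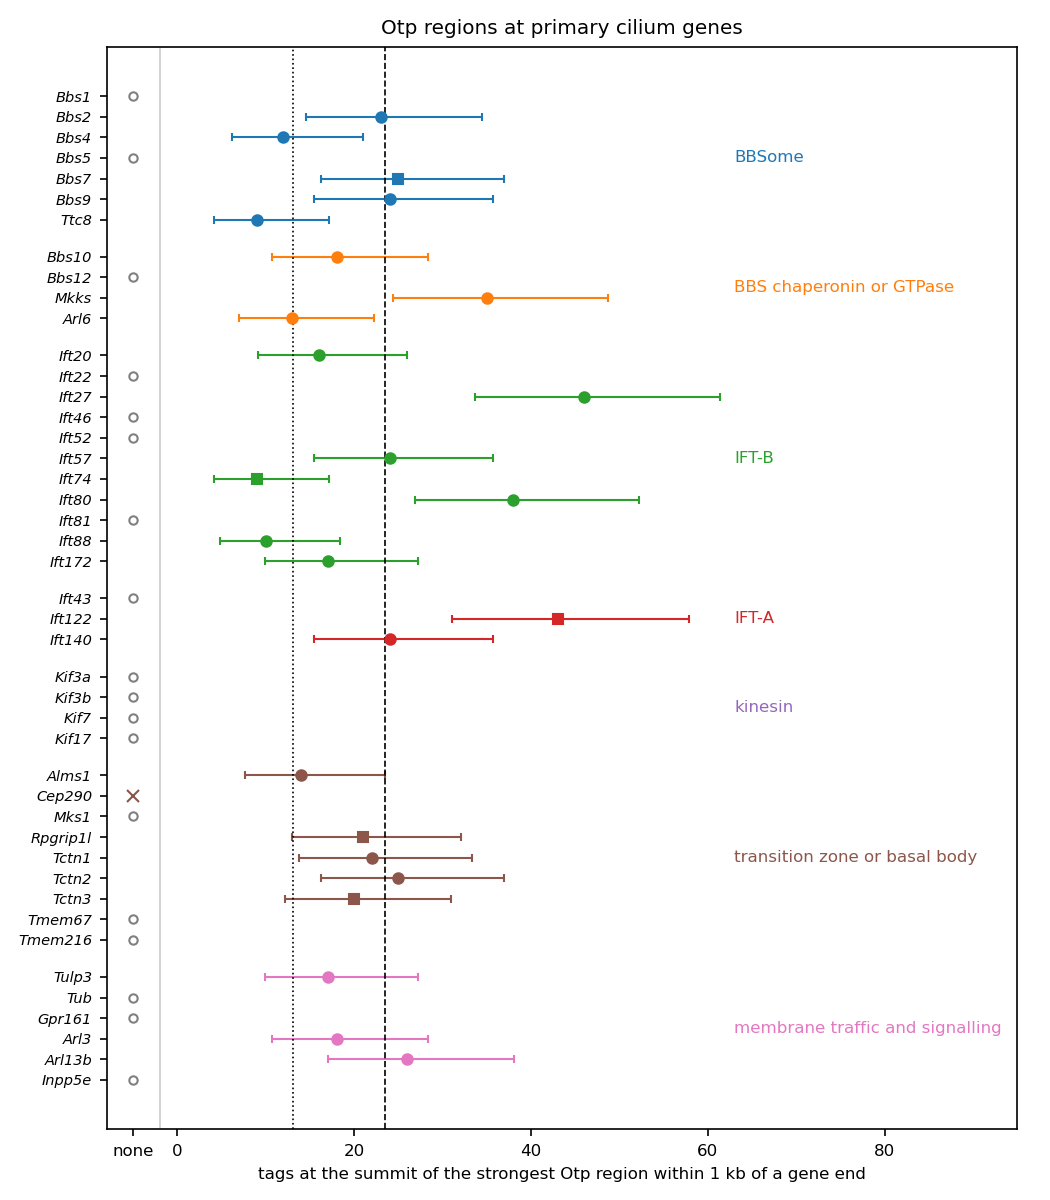
Tags at the summit of the strongest Otp region within 1 kb of an end of each cilium gene, in groups by role, with 95% Poisson intervals. Squares have their summit nearer to another gene, open circles at "none" have no region, and the cross is Cep290, whose pileup could not be worked out. The dashed and dotted lines show the pileups that would scale to the 4 tags of the weakest IgG region by the background ratio and by the ratio at shared regions. Filled points run from 9 tags to the 46 of Ift27, and the 4 kinesin genes have none.

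Region heights at cilium genes overlapped widely with those at other genes. Taking the strongest region of each gene, the 26 cilium genes had a median fold enrichment of 9.22 (interquartile range 7.38 to 12.2), against 7.83 (6.32 to 10.1) over all 5961 genes with a region. Median pileups were 21 tags (16 to 25) and 16 tags (12 to 23). The lowest fold among the 26 was 4.95, at Ttc8.

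Total depth is unknown for both libraries, since the peak lists hold no read numbers, and the IgG library had the lower background (0.0873 tags against 0.512). Scaled by the ratio of these values, 10 of the 25 cilium genes with a pileup reached the 4 tags of the weakest IgG region, Ift27 being highest with 7.84 scaled tags. The other 15 did not. Scaled by the median ratio at the 226 IgG regions that also had an Otp pileup (0.305), 20 reached it and 5 did not. That ratio rests on regions called in IgG, which were selected for their IgG signal. At genes below 4 scaled tags, a difference from IgG was not detectable at this depth. No such count was made over all genes with a region, so these counts do not set the cilium genes apart.

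Against the RefSeq starts, the regions lay at the 5′ end of the genes. A start was listed for 24 of the 26 genes with a region. The strongest summit lay within 1 kb of a start in 22 of these (91.7%, against 93.1% over all genes with a region), within 250 bp in 21 (87.5% against 80.4%) and within 100 bp in 16 (66.7% against 50.7%). The median distance was 71 bp. In 17 of the 22 genes the summit was upstream (77.3%, against 84.5% of all genes with their strongest region that close). The exceptions beyond 1 kb were Bbs7, whose taller region stood at its far end, and Ift74. The listed start of Ift74 lies 11340 bp from the summit, while the outer end of the gene lies 115 bp from it. A further Otp region inside Ift74 lay within 1 kb of that start, but the count by gene ends left it out. For Bbs2 the summit was 889 bp inside the outermost gene end and yet 29 bp after its RefSeq start. Counting starts alone, 25 of 40 cilium genes had an Otp region within 1 kb (62.5%), beside 29.5% of all genes with a listed start. Ift46 was added by that count, as its region lies 2379 bp from the outer end of the gene but within 1 kb of its start.

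**Figure D2:**
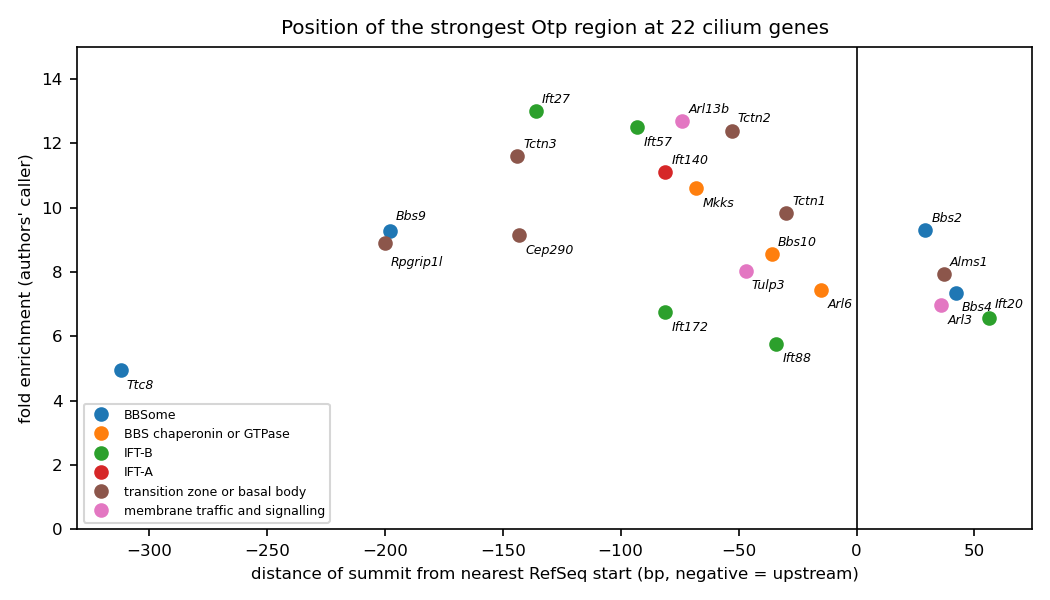
Fold enrichment of the strongest Otp region against the distance of its summit from the nearest RefSeq start, for the 22 cilium genes with a summit within 1 kb of a start. Negative distances are upstream in the direction of the gene. In 17 genes the summit lies upstream, mostly within 200 bp, and that of Ttc8 lies farthest, 312 bp before the start, with the lowest fold (4.95).

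Close to the limit of 1 kb, the summits at 920 bp (Bbs7) and 889 bp (Bbs2) were the outermost included, and the nearest excluded were at 2379 bp (Ift46) and 2633 bp (Kif17). The limit therefore falls in a gap, and a window of 500 bp kept 25 genes while 5 kb gave 28.

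Where an end of another gene is close by, the peak position cannot assign a region to a single gene. For 11 of the 26 genes (42.3%), another protein-coding gene had an end within 1 kb of the strongest summit, against 29% of all genes with a region. In 7 of the 30 regions the other gene was nearer. At Rpgrip1l the summit was 131 bp from its end and 55 bp from that of Fto, an RNA demethylase gene in a locus linked to obesity. At Tctn3 it was 51 bp away and 9 bp from Entpd1, an enzyme that breaks down extracellular ATP. At Cep290 it was 109 bp away and 74 bp from Tmtc3, and at Ift74 it was 115 bp away and 96 bp from Plaa. The remaining 3 were the region of Ift122 at Mbd4, the taller of Bbs7 at Ccna2 and the weaker of Ift80, 153 bp from Smc4, a condensin subunit. Counting only regions nearest to the cilium gene left 21 genes, beside 23.8% of all protein-coding genes.

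**Figure D3:**
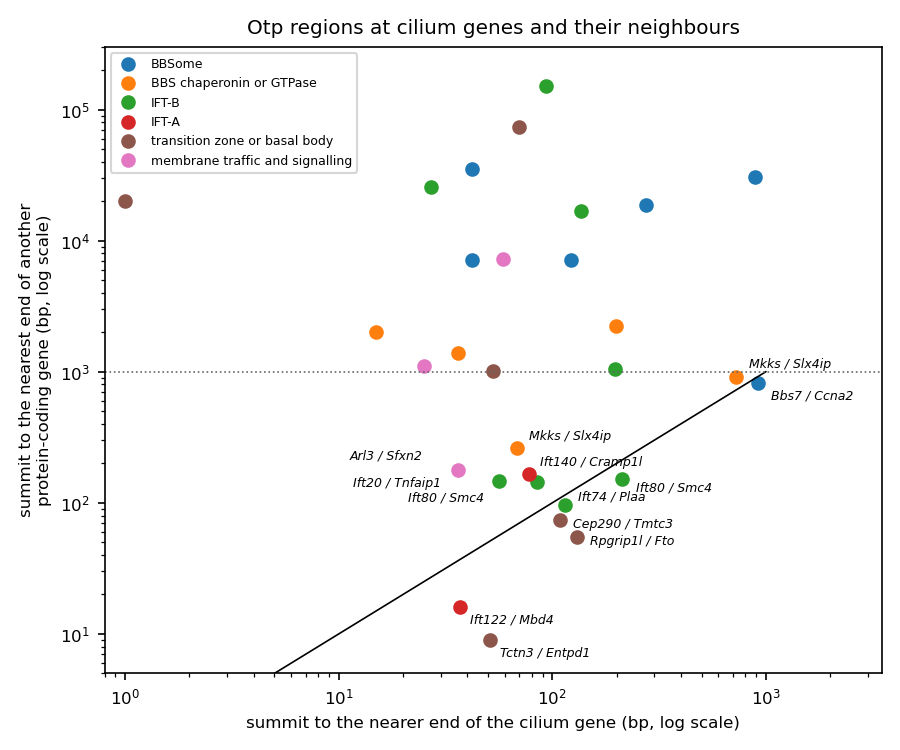
Distance of each of the 30 Otp summits from the nearer end of the cilium gene and from the nearest end of another protein-coding gene, both on log scales. Points under the diagonal, 7 in all, are nearer to the other gene, and the 13 points below the dotted line have another gene within 1 kb.

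Genes with close neighbours had an Otp region more often across the genome, and the cilium genes have many. Another protein-coding gene lay within 1 kb of an end of 20 of the 44 (45.5%), against 24.8% of all genes. Of these 20, 13 had a region (65.0%, against 43.0% of all such genes). Of the 24 without a close neighbour, 13 had one (54.2%, against 22.0%).

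Promoter composition also went with the presence of a region. The CpG ratio of a promoter is the number of CpG dinucleotides over the number expected from its C and G content, here in the 300 bases of the window, and it is high in CpG island promoters. Its median was 0.61 over the 17492 genes with a listed start, 0.82 in those with an Otp region and 0.41 in those without. Over cilium genes it was 0.81 in the 24 with a region and 0.72 in the 16 without, with ranges of 0.44 to 1.21 and 0.32 to 0.93 that overlap. Among all genes of like CpG ratio, 42.7% had a region, and so did 42.7% of those alike in both CpG ratio and length. The cilium genes with a listed start gave 24 of 40 (60.0%). Matching on CpG ratio was added after the data had been seen. The part of promoter composition in the count was not tested further.

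**Figure D4:**
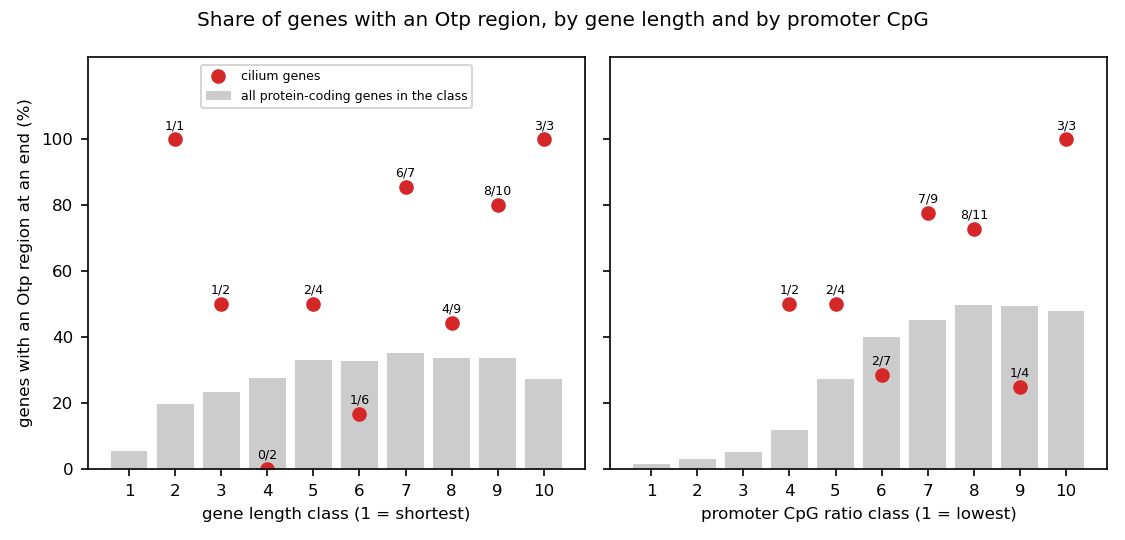
Share of genes with an Otp region at an end in 10 classes of gene length (left) and of promoter CpG ratio (right), of equal gene number. Bars are all protein-coding genes of the class on the left, and those with a listed start (17492) on the right. Points are the cilium genes, with their numbers beside them. The bars climb from 1.49% in the lowest CpG class to 49.7% in the eighth, and 34 of the 40 cilium genes with a listed start fall in the upper 5 classes.

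The rest of the pathway was counted from lists drawn up by function. Earlier results of these data were known by then, so the lists are not independent of them. Of 47 other genes of the primary cilium, 28 had an Otp region at an end (59.6%), beside 30.4% of genes of like length. Among those with a listed start, 24 of 41 had one (58.5%), beside 42.5% of genes of like CpG ratio. Among the highest were the IFT-A subunit Wdr19 (44 tags, fold 17.0), Wdpcp (38 tags), the BBSome subunit Bbip1 (38 tags) and the IFT-B subunit Hspb11 (30 tags). The summits of Wdpcp, Bbip1 and Hspb11 lay 194, 393 and 251 bp from ends of Mdh1, Shoc2 and Lrrc42. Their own gene ends lay 159, 2 and 191 bp away, so position does not assign these regions to a single gene. Lztfl1, which regulates BBSome traffic, had 19 tags. Nphp4, of the transition zone, had 28 tags, but its region lay 96 bp from an end of Kcnab2 and 939 bp from its own. Of 26 genes of motile cilia, which beat and are found on ependymal cells of the ventricle wall, 7 had a region (26.9%), beside 30.0% of genes of like length. Their tallest was at Dnaic1, a dynein chain, with 23 tags, its summit 123 bp from its own end and 163 bp from that of Fam219a.

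The last lists hold receptors and regulators. Of 18 ciliary receptors and signalling genes, 2 had a region (11.1%), beside 29.2% of genes of like length and 34.7% of like CpG ratio. These were Sufu, a repressor of Hedgehog signalling, with 30 tags, and Mc4r with 11 tags. Of 11 transcription factors of ciliogenesis, 2 had one (18.2%, beside 30.5% of genes of like length and 47.9% of like CpG ratio), namely Rfx2 with 27 tags and Foxj1, the factor of motile cilia that is also in the motile list, with 9. Mc4r and Foxj1 had fewer tags than Bbs4 (12), which stayed below 4 scaled tags by both ratios (2.05 and 3.66). A difference from IgG was thus not detectable at either gene. Differences between the lists were not tested.

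**Figure D5:**
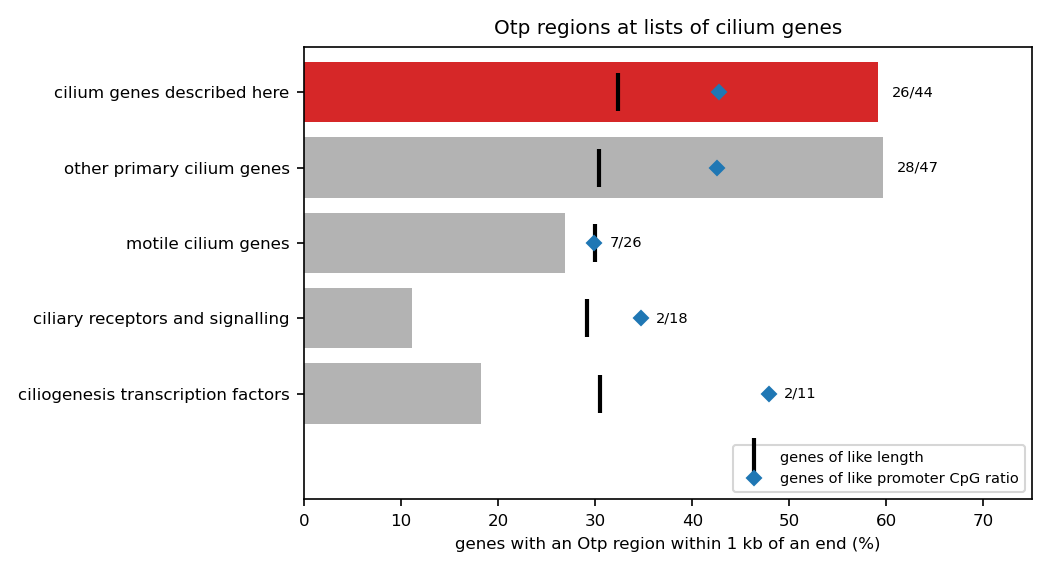
Share of genes with an Otp region within 1 kb of an end in 5 lists of cilium genes, with the number of genes beside each bar. Black ticks are the share among all protein-coding genes of like length and blue diamonds the share among those of like promoter CpG ratio. The diamonds cover only genes with a listed start, while the bars count every gene of a list. The 2 lists of primary cilium genes reach 59.1% and 59.6%, and the motile cilium list 26.9%.

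Peak lists do not measure expression, so the labelled cell type could be checked only by counts of regions at marker genes. Regions were found at 3 of 8 neuronal markers, 2 of 6 of the PVN, 2 of 6 ependymal, 1 of 5 astrocyte and 1 of 5 oligodendrocyte markers, and no marker had an IgG region. Among genes of like length the shares were 29.4%, 23.3%, 26.1%, 30.2% and 31.9%, so counts this small lay near the background and do not identify a cell type. Whether a region at a cilium gene comes from neurons or from other ciliated cells was not tested.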

How the data were processed

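CUT&RUN regions of 1 Otp and 1 IgG library were analysed, grouped by the antibody label. The authors deposited 1 peak list per sample. The submitters' processing notes name build mm10 and the tools MACS2, Bowtie2, Trimmomatic, SAMtools and Picard, with no versions or settings. Whether a control library entered the peak calling is not given in the sources used here. Each region carries the authors' deposited fold enrichment (a ratio over the caller's local background) and their −log10 p-value and −log10 q-value. The deposited display score repeats the −log10 q and was not used. The smallest −log10 q is 2.01 in the Otp list of 11379 regions and 2.03 in the IgG list of 291.

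Pileups were worked out from fold and p, as the whole number that gave the −log10 p within 0.001 while the next missed by over 0.005. This gave a value for 11182 Otp and 262 IgG regions, and was tested on simulated data. Poisson and binomial intervals cover counting error only. PCR copies of a molecule may have been counted among the tags, and the binomial interval takes the genes as independent draws. A library's background is the lowest local background shared by at least 3 regions.

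Gene ends came from a RefSeq table of GRCm38.p6, in which all 44 genes were found, and starts, strands and promoter sequences from a RefSeq promoter table, which held 40. Genes of like length or CpG ratio are 10 classes of equal gene number, weighted by the classes of the cilium genes, or 5 by 5 classes when both were matched.

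The genes and lists were chosen with earlier results of these data known. Every cilium gene with a region is named, promoters were printed for at most 6 genes by −log10 q, and of the other lists up to 5 genes of the highest −log10 q were named, with Nphp4 and Lztfl1 added after their values were seen; 1 gene that the rule would name is not reported here. Alternatives changed the window, the peak threshold, the overlap that counts (1 bp, or 50% reciprocal), the length classes and the genes counted as neighbours, or kept starts or nearest genes only. The calculations used Python 3.11.15, numpy 2.4.6, pandas 2.3.3, scipy 1.17.1 and matplotlib 3.10.9.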

Additional observations from a re-analysis of the deposited data

How the results depend on the processing

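The threshold on the peaks changed the counts most. At a −log10 q of at least 10, 17 of the 44 cilium genes kept a region (38.6%), beside 13.4% of all protein-coding genes and 16.2% of genes of like length. The other primary cilium list then had 15 genes and the motile list 1. The genes lost were Bbs4, Ttc8, Arl6, Ift20, Ift74, Ift88, Ift172, Alms1 and Arl3. The other alternatives gave 21 to 28 genes of the set, and the cilium genes stayed above the share of all genes in each. The share of 32.3% among genes of like length became 27.2% with no matching and 42.7% with classes of CpG ratio, alone or with length. Among genes of like length it was 30.0% with a window of 500 bp and 40.2% with 5 kb. Of all protein-coding genes, 25.1% and 34.4% had a region at these windows. With these windows, 25 and 28 cilium genes had a region (56.8% and 63.6%). The counts of IgG regions at cilium genes and of overlaps with IgG were 0 at every setting tried. Regions of few tags cannot be set against IgG, whose background was lower. No paired analysis was possible because there is 1 library per antibody, which also means that none could be omitted.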

Other observations

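Other motifs were counted in the same 44 promoter windows of cilium genes, on both strands, and set beside all 21263 windows and the windows of other primary cilium genes. CCAAT, the NF-Y site, was in 25 (56.8%), against 38.2% of all windows, 48.6% of windows of genes with an Otp region and 59.2% of other primary cilium windows. GGGCGG, the Sp factor site, was in 28 (63.6%), against 46.2%, 66.6% and 63.3%. CCGGAAG, an ETS factor site, was in 9 (20.5%), against 11.6%, 20.2% and 18.4%. TATAAA was in the window of Bbs4 alone (2.27%), against 12.6%, 6.44% and 4.08%. These shares were not tested.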
